A study of Mus musculus with 6 samples.

Results

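The BCL2 family decides whether the outer mitochondrial membrane is opened, the step that commits a cell to intrinsic apoptosis. The 10 genes described here are the antiapoptotic BCL2, BCL2L1 and MCL1, the pore-forming effectors BAX and BAK1, and the BH3-only genes BCL2L11, BBC3, PMAIP1, BID and BAD. They were taken by gene symbol from a table of 58735 genes, and each symbol matched 1 gene. All 10 passed the filter on low counts, together with 17142 genes in all, and their lowest count in any library was 82. RNA-Seq compared 22Rv1, a human prostate cancer cell line, given vehicle (parental, n = 3) with the subline 22Rv1 BL-B01D1_R, selected by rising concentrations of BL-B01D1 (resistant, n = 3). BL-B01D1 is a bispecific antibody-drug conjugate against EGFR and HER3 that carries Ed-04, a camptothecin derivative that inhibits topoisomerase I. The resistant libraries come from 1 selected line, and no label says that libraries of a group were separate cultures, so p-values measure the spread between these libraries, which may be technical.

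In healthy and malignant cells, antiapoptotic proteins hold BAX and BAK in check by binding the BH3 helix of their relatives. BH3-only proteins report stress: some bind BAX and BAK directly, others only occupy the antiapoptotic proteins. DNA damage by topoisomerase I inhibitors is known to reach this family, and BAX, BBC3 and PMAIP1 are textbook genes of the DNA damage response. Much of the control lies past transcription, through the rapid turnover of MCL1, the cleavage of BID and the phosphorylation of BAD. Gene-level counts show none of this, nor do they separate splice forms with opposite effects, such as the long and short products of BCL2L1.

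Counts on genes totaled between 13821639 and 17251491 per library, and a gene with 3 counts in a library had a level of 0.174 to 0.216 CPM. CPM here are counts per 1000000 counts of a library, adjusted by its TMM factor. All 10 prostate luminal markers were detected and tested, with a summed level of 3799 to 3902 CPM in parental and 4052 to 4129 CPM in resistant libraries, 6 of them higher and 3 lower. The 4 endothelial markers had no more than 3 counts in any library, with CDH5 and KDR at 0 throughout, and among 6 blood markers CD3E and HBB were at 0 in all libraries, with summed levels of 1.04 to 1.79 CPM in parental and 0.952 to 1.73 CPM in resistant libraries. The summed level of 7 stromal markers was 113 to 116 CPM in parental and 40.7 to 45.8 CPM in resistant libraries. Most of this was LUM. COL1A1 had 164 to 259 counts per library and was lower as well (log2 fold change −0.28, edgeR FDR 0.0348), COL3A1, DCN and ACTA2 had at most 29 counts in any library, and COL1A2 and PDGFRB at most 6. In bulk RNA, fewer cells of a type and less RNA per cell cannot be told apart, and the part of the LUM and COL1A1 differences in the results here was not tested. The labels name mouse as the organism, but the gene identifiers are human.

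The 10 members had log2 fold changes of at most 0.42 in size and did not move in 1 direction. In resistant cells BCL2, BAX, BCL2L11 and BID were lower and MCL1 and BAK1 were higher at an FDR of less than 0.05 (edgeR's quasi-likelihood test, adjusted over all tested genes). BCL2L1, BBC3, PMAIP1 and BAD did not pass. The same rule called 35.5% of all tested genes, 17.1% higher and 18.4% lower. Among the 11287 genes with a mean level at least that of BID, the least abundant member, it called 42.9%, 20.6% higher and 22.2% lower. The 6 of 10 members stand beside these shares, from which no test of the family as a whole was made.

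No member reached the fold threshold that the study's methods add, an absolute log2 fold change greater than 1, with edgeR, limma-voom or DESeq2, although 6 members had an unadjusted p of less than 0.05 with edgeR. Both thresholds together called 5.37% of all tested genes, 2.53% higher and 2.84% lower. The log2 fold changes of the members ran from −0.42 (BCL2) to 0.28 (BAK1), with 6 below 0 and 4 above. Their median size without regard to sign was 0.21, beside 0.17 over all tested genes. Libraries of the groups did not overlap in the same 6 members, beside 44.8% of all tested genes, and no test of this count was made.

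**Figure D1:**
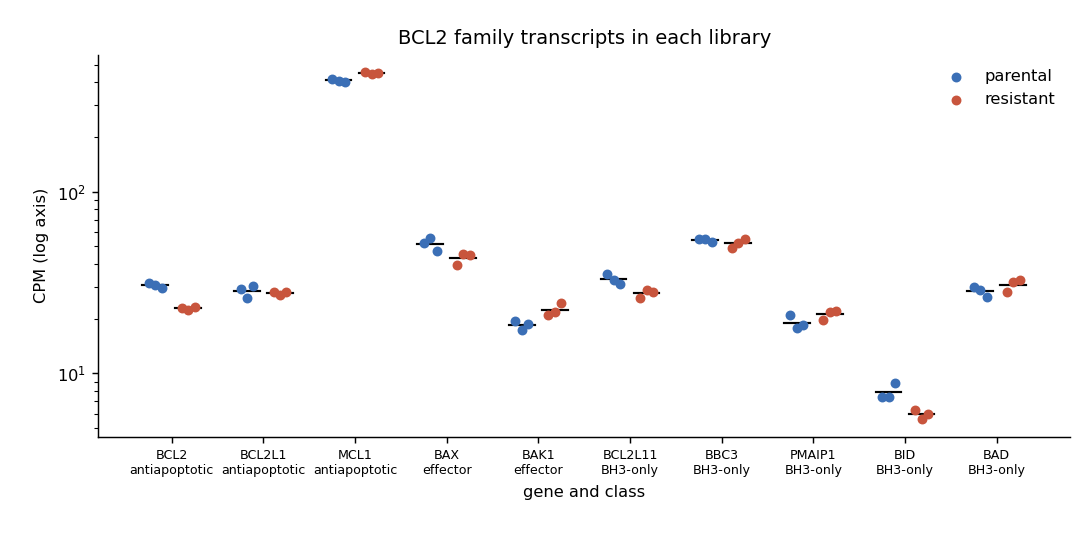
CPM of the 10 genes in each library (log axis), with parental libraries in blue, resistant libraries in red and a black bar at the mean of 3 libraries. MCL1 lies far above the rest, at 402 CPM or more in every library, and the groups separate for BCL2, MCL1, BAX, BAK1, BCL2L11 and BID.

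BCL2 (ENSG00000171791, chromosome 18 of hg38, 63123346 to 63320128, reverse strand) is the founding antiapoptotic member. Its mRNA was 31.4, 30.7 and 29.4 CPM in the parental libraries and 22.7, 22.4 and 23.0 CPM in the resistant libraries. All resistant libraries lay under all parental ones. The log2 fold change of BCL2 was −0.42 (SE 0.074, edgeR FDR 9.24e-06), so its level fell by 25.5%. Of the 10 members it had the smallest p, and 79.2% of all tested genes had a smaller change in size. Its call held in every alternative fit run, with an FDR of at most 1.77e-04.

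MCL1 (ENSG00000143384, chromosome 1, 150574551 to 150579738, reverse strand), a short-lived antiapoptotic protein that binds BAK and NOXA, moved the other way. It had 419, 406 and 402 CPM in parental and 455, 446 and 449 CPM in resistant libraries. The groups did not overlap, but the change was small, a log2 fold change of 0.14 (SE 0.027, edgeR FDR 8.34e-05), or 10.04% more. With 5577 counts or more in each library, MCL1 was the member measured most precisely, with a spread of 2.12% of the mean in parental and 1.07% in resistant cells. Its FDR was at most 0.00124 in the alternative fits.

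BCL2L1 (ENSG00000171552, chromosome 20, 31664452 to 31723989, reverse strand) encodes BCL-XL, the other main guard of BAX and BAK. It was at 29.1, 26.1 and 30.0 CPM in parental and 27.9, 26.9 and 28.1 CPM in resistant libraries, so the resistant values lay within the parental range. The log2 fold change was −0.037 (SE 0.074, edgeR FDR 0.745), with a 95% interval of −0.19 to 0.11. The antisense gene ABALON overlaps BCL2L1 on the opposite strand and had 15, 10 and 5 counts in parental and 3, 8 and 13 in resistant libraries, too few to be tested.

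BAX and BAK1 encode the proteins that form the pore, and either one can suffice for it. BAX (ENSG00000087088, chromosome 19, 48954815 to 48961798, forward strand) was at 52.2, 55.5 and 47.2 CPM in parental and 39.7, 45.3 and 44.7 CPM in resistant libraries. BAK1 (ENSG00000030110, chromosome 6, 33572547 to 33580293, reverse strand) was at 19.4, 17.2 and 18.7 CPM in parental and 21.1, 21.6 and 24.2 CPM in resistant libraries. Neither gene overlapped between the groups, and they moved in opposite directions. The log2 fold change was −0.26 for BAX (SE 0.063, edgeR FDR 0.00107) and 0.28 for BAK1 (SE 0.085, edgeR FDR 0.00985), a decrease by 16.5% and an increase by 21.0%.

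The BAX call held in every alternative fit, with an FDR of at most 0.0287. The BAK1 call did not hold without parental replicate 2 (log2 fold change 0.23, edgeR FDR 0.0682) or without resistant replicate 3 (0.21, edgeR FDR 0.0920), and the FDR of BAK1 over all alternatives ranged from 0.00768 to 0.0920. BAX lies beside FTL, which was higher, and BAK1 beside ITPR3, which was lower.

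**Figure D2:**
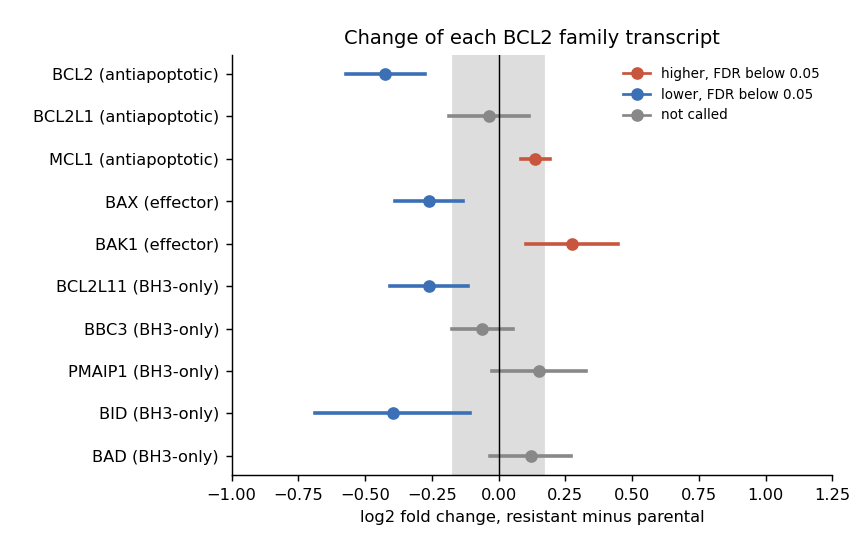
Log2 fold change (resistant minus parental) of each of the 10 genes with its 95% interval from edgeR's fit. The gray band spans the median size of change over all tested genes, 0.17 to either side of 0. The estimates of BCL2, BAX, BCL2L11 and BID lie to its left and that of BAK1 to its right. Only the interval of BCL2, −0.57 to −0.28, lies wholly outside the band.

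Among the BH3-only genes, 2 of 5 were lower and none was higher at an FDR of less than 0.05, and the same held at an unadjusted p of less than 0.05. Of all tested genes 18.4% were lower and 17.1% higher, and with 5 genes the count does not set the BH3-only genes apart from these shares. BCL2L11 (ENSG00000153094, chromosome 2, 111119378 to 111168447, forward strand) encodes BIM, an activator that binds all antiapoptotic proteins. It was at 35.1, 32.5 and 31.0 CPM in parental and 25.9, 28.6 and 28.0 CPM in resistant libraries, with no overlap. The log2 fold change of BCL2L11 was −0.26 (SE 0.072, edgeR FDR 0.00392), and its FDR stayed at or under 0.0409 in the alternative fits.

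BID (ENSG00000015475, chromosome 22, 17734138 to 17774770, reverse strand) links death receptors to mitochondria once caspase 8 has cut it. It had the fewest counts of the members, 127, 124 and 123 in parental and 104, 82 and 97 in resistant libraries. These correspond to 7.37, 7.38 and 8.86 CPM in parental and 6.27, 5.57 and 5.98 CPM in resistant cells, again with no overlap. The log2 fold change of BID was −0.40 (SE 0.14, edgeR FDR 0.0275), close to that of BCL2 but with the largest SE of the members.

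The BID call was the least firm. It was lost with DESeq2 (adjusted p = 0.0817), without a filter on low counts (edgeR FDR 0.0510), without parental replicate 3 (log2 fold change −0.31, edgeR FDR 0.142), without resistant replicate 2 (−0.35, edgeR FDR 0.0902) and without resistant replicate 3 (−0.40, edgeR FDR 0.0548). Over all alternatives the adjusted p of BID ranged from 0.0215 to 0.142.

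BBC3 and PMAIP1, the DNA damage response genes among the BH3-only genes, did not pass. BBC3 (ENSG00000105327, chromosome 19, 47220822 to 47232766, reverse strand) encodes PUMA. It was at 54.8, 54.9 and 52.8 CPM in parental and 48.7, 52.2 and 55.1 CPM in resistant libraries, a log2 fold change of −0.061 with a 95% interval of −0.17 to 0.053 (edgeR FDR 0.441). PMAIP1 (ENSG00000141682, chromosome 18, 59899948 to 59904306, forward strand) encodes NOXA, which binds MCL1. It was at 20.9, 17.7 and 18.4 CPM in parental and 19.7, 21.7 and 22.1 CPM in resistant libraries, a log2 fold change of 0.15 with an interval of −0.023 to 0.33 (edgeR FDR 0.180). Resistant values of BBC3 and PMAIP1 overlapped the parental ones. Of the 3 DNA damage response genes named above, BAX alone was called, and it was lower, beside 35.5% of all tested genes called. With 3 genes the count does not set them apart from that share.

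BAD (ENSG00000002330, chromosome 11, 64269830 to 64284704, reverse strand) encodes a sensitizer that binds BCL2 and BCL-XL when it is not phosphorylated. It was at 29.8, 28.6 and 26.3 CPM in parental and 28.1, 31.7 and 32.7 CPM in resistant libraries, which overlap. The log2 fold change was 0.12 with an interval of −0.031 to 0.27 (edgeR FDR 0.224). BAD overlaps GPR137 on the opposite strand, which had 738 to 1003 counts per library, and whether counting used strand is not given in the sources used here, so the counts of BAD are uncertain to that extent.

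Levels of different genes were compared as FPKM, which divides CPM by the listed gene length. The length of the transcripts expressed was not measured. The order of genes, their shares and the sums of classes therefore depend on the listed lengths. In parental cells MCL1 stood first at 93.5 ± 1.98 FPKM (SD, n = 3), above 98.0% of all tested genes. BAX followed at 19.95 ± 1.62 FPKM (SD, n = 3), then BBC3 at 17.04 ± 0.37 and BAD at 16.5 ± 1.05 FPKM (SD, n = 3 each), whose libraries overlapped. BCL2L1, PMAIP1 and BAK1, at 8.57, 8.51 and 8.33 FPKM, could not be ordered beyond their spread. BCL2L11 at 4.93, BCL2 at 2.59 and BID at 1.77 FPKM were the lowest, each apart from the next.

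In resistant cells MCL1 again stood first at 103 ± 1.10 FPKM (SD, n = 3). The libraries of BAD (18.03 FPKM), BAX (16.7 FPKM) and BBC3 (16.4 FPKM) overlapped there, so BAX no longer stood apart from the other two. BAK1 (10.1 FPKM) and PMAIP1 (9.48 FPKM) overlapped as well, both with every library above those of BCL2L1 (8.34 FPKM). BCL2L11 (4.13 FPKM), BCL2 (1.93 FPKM) and BID (1.34 FPKM) kept the last places in the same order.

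**Figure D3:**
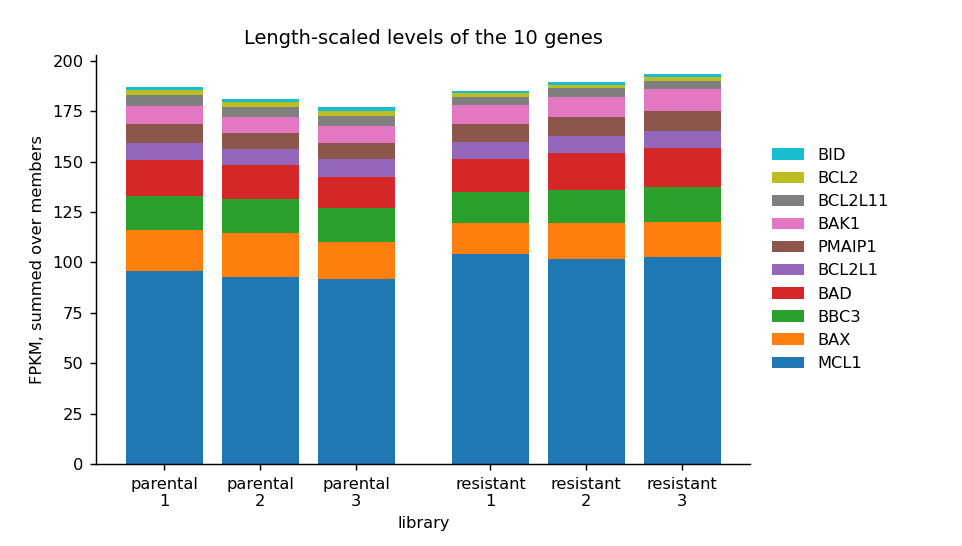
FPKM of the 10 genes stacked in each library (parental 1 to 3, resistant 1 to 3), from the most abundant gene in parental cells at the bottom. MCL1 makes up the largest block in every library, between 51.2% and 56.2% of the sum.

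MCL1 alone made up 89.3% ± 0.52 of the summed FPKM of the 3 antiapoptotic genes in parental and 90.9% ± 0.14 in resistant cells (SD, n = 3 each). The antiapoptotic sum was 107, 103 and 103 FPKM in parental and 114, 112 and 113 FPKM in resistant libraries, without overlap. The sum of BAX and BAK1 overlapped, at 28.3 ± 1.40 FPKM in parental and 26.8 ± 1.75 FPKM in resistant cells (SD, n = 3 each). The sum of the 5 BH3-only genes overlapped too, at 48.8 ± 2.08 and 49.3 ± 3.12 FPKM (SD, n = 3 each).

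Ratios of these levels, given as descriptions with no test, cancel the scaling of a library. Antiapoptotic over effector transcripts were 3.70, 3.54 and 3.88 in parental and 4.61, 4.10 and 4.01 in resistant libraries, which did not overlap. Resistant replicate 1 was the highest of the 6. MCL1 made up 89.3% of the antiapoptotic sum in parental and 90.9% in resistant cells, and BAX most of the effector sum. This ratio is therefore not independent of the MCL1 and BAX calls. Without MCL1, BCL2 and BCL2L1 over BAX and BAK1 were 0.396 ± 0.038 in parental and 0.384 ± 0.028 in resistant cells (SD, n = 3 each), which overlapped. BAX over BAK1 was 2.29, 2.76 and 2.16 in parental and 1.61, 1.79 and 1.58 in resistant libraries. By FPKM, BAX made up 70.5% ± 2.60 of the effector sum in parental and 62.4% ± 1.59 in resistant cells (SD, n = 3 each). As BAX was lower and BAK1 higher in all resistant libraries, BAX over BAK1 had to separate the groups and adds nothing to those calls.

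BH3-only over effector transcripts did not overlap either, at 1.73 ± 0.058 in parental and 1.84 ± 0.0036 in resistant cells (SD, n = 3 each). The next 4 ratios overlapped between the groups. BCL2 over BAX was 0.1303 ± 0.0080 in parental and 0.116 ± 0.0089 in resistant cells (SD, n = 3 each). MCL1 over PMAIP1, a transcript and its BH3-only partner, was 11.04 ± 0.76 and 10.9 ± 0.78 (SD, n = 3 each). BCL2L1 over BAX was 0.433 ± 0.065 and 0.501 ± 0.044 (SD, n = 3 each). Antiapoptotic over BH3-only transcripts were 2.15 ± 0.054 and 2.30 ± 0.17 (SD, n = 3 each).

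**Figure D4:**
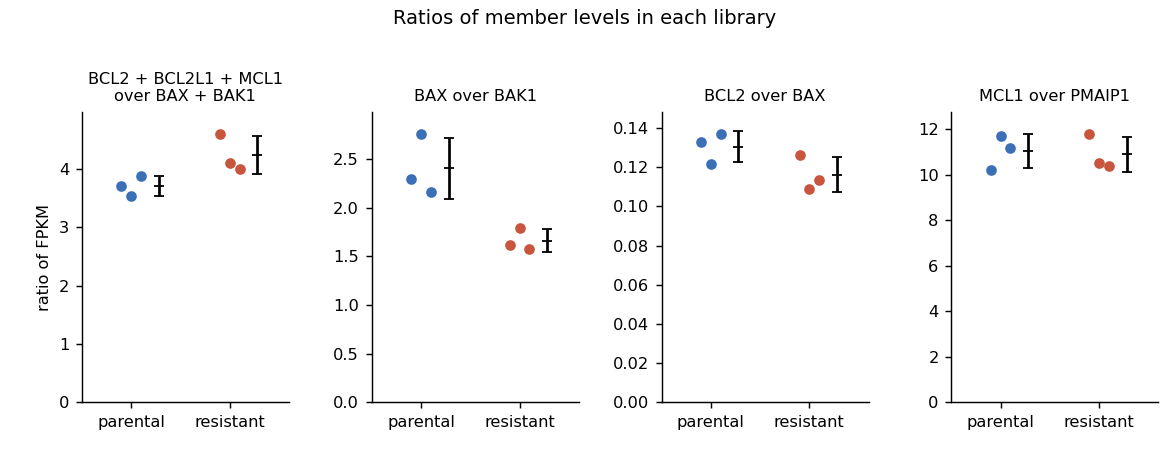
Ratios of FPKM in each library, with parental libraries in blue, resistant libraries in red and black bars for the mean and SD of 3 libraries (axes start at 0). Antiapoptotic over effector transcripts and BAX over BAK1 separate the groups, with 3.54 to 3.88 against 4.01 to 4.61 and 2.16 to 2.76 against 1.58 to 1.79, whereas BCL2 over BAX and MCL1 over PMAIP1 overlap. The separation of BAX over BAK1 follows from the opposite moves of both genes, and antiapoptotic over effector transcripts are not independent of the MCL1 and BAX calls.

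The rest of the BCL2 family was read from a list of 13 further genes, of which 11 could be tested. At an FDR of less than 0.05, 4 were lower and 1 was higher, beside 18.4% and 17.1% of all tested genes. With 11 genes the count does not set the relatives apart from these shares. Their median log2 fold change was −0.14, beside 0.0038 over all tested genes. BMF, a BH3-only gene, was at 28.4, 28.2 and 25.6 CPM in parental and 17.8, 17.2 and 22.2 CPM in resistant libraries (log2 fold change −0.52, SE 0.086, edgeR FDR 4.11e-06). That change exceeds in size that of any of the 10 members. BOK, a relative of BAX and BAK1, was at 31.2, 30.1 and 27.4 CPM and 20.3, 22.8 and 23.2 CPM (log2 fold change −0.42, SE 0.078, edgeR FDR 2.55e-05). For BMF and BOK all resistant libraries lay under all parental ones.

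BNIP3, which acts in mitophagy, was lower (log2 fold change −0.21, edgeR FDR 2.08e-04), and its relative BNIP3L was higher (0.11, edgeR FDR 0.0249). BCL2L2, the antiapoptotic BCL-W, was lower by a log2 value of −0.14 (edgeR FDR 0.0404). The calls of BNIP3L and BCL2L2 were lost with DESeq2 (adjusted p = 0.0607 and 0.0983), that of BNIP3L also with library size alone (edgeR FDR 0.0570) and that of BCL2L2 without a filter (edgeR FDR 0.0848). BNIP3L also lost its call without parental replicate 3 (log2 fold change 0.093), resistant replicate 1 (0.10) or resistant replicate 2 (0.096), over an FDR range of 0.0163 to 0.105 across all alternatives. BCL2L2 lost it without parental replicate 2 or 3 (−0.14 and −0.13) or resistant replicate 1 or 3 (−0.12 and −0.14), over a range of 0.0216 to 0.158.

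BCL2L13 (log2 fold change 0.10, edgeR FDR 0.0547), BCL2L12 (−0.068, edgeR FDR 0.459) and the BH3-only genes BIK (−0.23, edgeR FDR 0.378) and HRK (−0.041, edgeR FDR 0.933) did not pass. BIK and HRK had at most 69 counts in any library. BCL2L10 (0.0040, edgeR FDR 0.996) and BCL2L14 (−0.25, edgeR FDR 0.715) had no more than 24 counts in any library, and BCL2L15, with 2 to 11 counts, was not tested, so no change was detectable there. BCL2A1, an antiapoptotic gene of blood cells, was at 0 counts in all 6 libraries.

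Beyond the family, 6 lists covered what lies downstream, upstream and around these proteins, and with the 13 relatives 71 of 79 listed genes were tested. Of these 71 genes, 7 were higher (9.86%) and 20 lower (28.2%) at an FDR of less than 0.05, beside 17.1% and 18.4% of all tested genes. In either direction 38.0% of the listed genes were called, beside 35.5% of all tested genes. Among 11 tested genes of the apoptosome and caspases, 1 was higher and 3 were lower. APAF1, the scaffold that cytochrome c assembles into the apoptosome, was lower (−0.26, edgeR FDR 9.15e-04), as was DFFB, the nuclease that cuts chromatin (−0.42, edgeR FDR 1.69e-04). CASP2, named after its value was seen, was the other gene called lower (−0.19, edgeR FDR 0.00415).

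Among 8 tested inhibitor of apoptosis (IAP) genes and their antagonists, 3 were lower and 0 higher with edgeR, beside 18.4% and 17.1% of all tested genes. Also 0 were higher at an unadjusted p of less than 0.05 or in any alternative fit. With 8 genes these counts do not set the list apart from those shares. BIRC3, encoding cIAP2, had 43, 51 and 58 counts in parental and 23, 23 and 28 in resistant libraries (log2 fold change −1.04, SE 0.26, edgeR FDR 0.00125). SEPTIN4, whose product ARTS antagonizes XIAP, had 51, 41 and 51 counts and 18, 25 and 22 counts (log2 fold change −1.13, SE 0.27, edgeR FDR 7.71e-04). BIRC3 and SEPTIN4 were the only genes of the 7 lists past both thresholds with edgeR. Without parental replicate 3 their log2 fold changes were −0.82 and −0.97, and without resistant replicate 1 they were −0.95 and −0.98, inside the fold threshold. BIRC5, encoding survivin, fell by 0.22 on the log2 scale (SE 0.033, edgeR FDR 7.94e-07).

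Of 10 tested death receptor genes, which feed into the family through BID, 2 were higher and 1 was lower. Of all tested genes 17.1% were higher and 18.4% lower, and 10 genes are too few to stand apart from these shares. CASP8, the protease that cuts BID, was at 7.25, 6.07 and 5.98 CPM in parental and 8.39, 11.1 and 10.6 CPM in resistant libraries (log2 fold change 0.63, SE 0.14, edgeR FDR 2.74e-04). CFLAR, which restrains caspase 8, rose by 0.19 on the log2 scale (edgeR FDR 0.00719), a call lost without parental replicate 1 (0.13, edgeR FDR 0.0876) or resistant replicate 1 (0.15, edgeR FDR 0.0847), over a range of 0.00247 to 0.0876. TNFRSF10B, the TRAIL receptor DR5, was at 110, 115 and 113 CPM and 81.2, 87.0 and 90.0 CPM (log2 fold change −0.39, SE 0.043, edgeR FDR 8.53e-10). BID, whose call was the least firm of the members, was lower beside more CASP8 transcript and less of this receptor. The other 7 tested genes of this list, further receptors among them, were not called, and a link to BID was not tested.

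Of 13 tested factors known to act on BH3-only genes, 1 was higher and 4 were lower, beside 17.1% and 18.4% of all tested genes. With 13 genes the count does not set the factors apart from these shares. TP73, a transcription factor gene, was at 9.57, 10.4 and 9.37 CPM and 5.55, 5.85 and 6.78 CPM (log2 fold change −0.69, SE 0.13, edgeR FDR 5.89e-05). ATF3 and ATF4, stress-response factors, were lower by log2 values of −0.48 (edgeR FDR 1.83e-08) and −0.40 (edgeR FDR 9.17e-15), while DDIT3, encoding CHOP, was at −0.057 (edgeR FDR 0.742). The gene called higher, TRIB3, a pseudokinase gene (0.35, edgeR FDR 4.82e-11), and the fourth called lower, CEBPB (−0.38, edgeR FDR 9.45e-06), were named after their values were seen.

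Of 7 tested genes that act on the turnover of members, 1 was higher and 1 was lower, beside 17.1% and 18.4% of all tested genes. HUWE1, a ubiquitin ligase of MCL1, was lower by a log2 value of −0.097 (edgeR FDR 0.00509). BTRC was higher at 0.18 (edgeR FDR 0.0418), a call lost with DESeq2 and, by edgeR, with library size alone, without a filter, and without parental replicate 1 or 2 (0.15 and 0.16) or resistant replicate 2 or 3 (0.20 and 0.13), over a range of 0.0198 to 0.235. Of 11 mitochondrial partners, 1 was higher and 4 were lower, and neither count is set apart from the same shares with so few genes. Those with the largest changes were VDAC2, a channel that BAK docks at (log2 fold change −0.14, edgeR FDR 6.41e-04), the fusion gene MFN1 (−0.36, edgeR FDR 1.46e-07) and the fission gene FIS1 (0.16, edgeR FDR 3.77e-04). VDAC3 (−0.12, edgeR FDR 0.0272) and DNM1L (−0.10, edgeR FDR 0.0339), named after their values were seen, made up the rest, and DESeq2 called 2 of the partners lower.

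**Figure D5:**
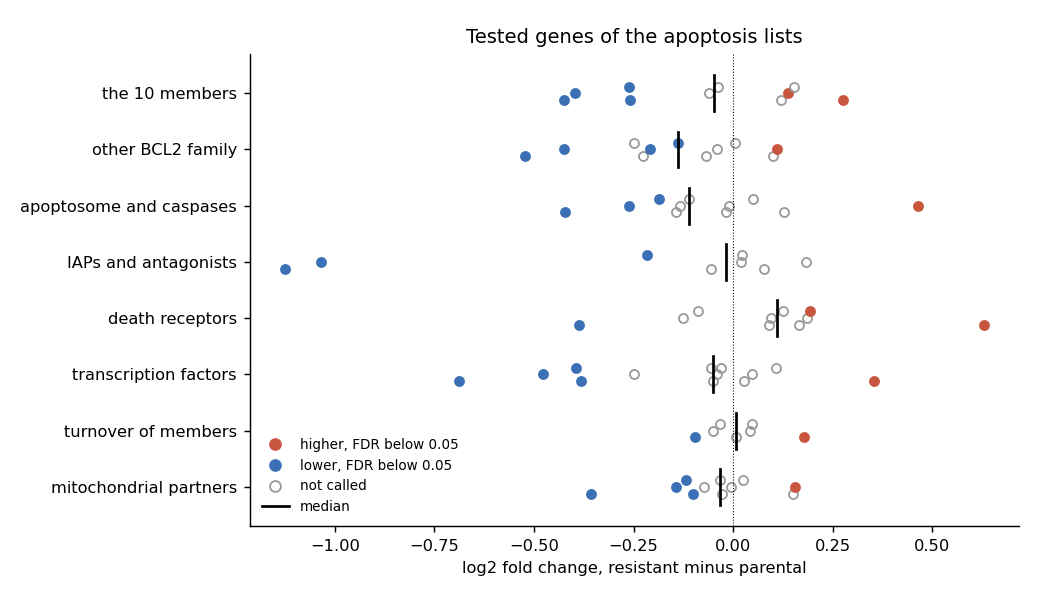
Log2 fold change (resistant minus parental) of each tested gene of the members and of the 7 lists, 1 point per gene, filled where the FDR was less than 0.05, with a black bar at the median of a list. BIRC3 and SEPTIN4, at −1.04 and −1.13, lie farthest from 0.

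BCL2 and PMAIP1 share chromosome 18 and BAX and BBC3 chromosome 19, and in each pair the first gene was called lower and the second was not called. The nearest tested protein-coding gene on each side was read for every member. Of these 20 neighbors, 11 passed an FDR of less than 0.05, where 35.5% of all tested genes did. Among genes with a mean level at least that of BID the share was 42.9%. The share of protein-coding genes alone was not computed, and no test of the count of neighbors was made. Where member and neighbor were both called, 3 went in the same direction and 2 in opposite directions. KDSR beside BCL2 had a log2 fold change of −0.15, ENSA beside MCL1 0.11, and ACOXL, 1.16 kb from BCL2L11, −1.61. FTL beside BAX had 0.18 and ITPR3 beside BAK1 −0.33.

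The pattern of BCL2, the member with the smallest p, was also set against every tested gene over the 6 libraries, by the root mean square difference of log2 CPM centered on the parental mean. The nearest genes were TSPAN8 (difference 0.015, log2 fold change −0.41), KIF14 (0.022, −0.42) and GARS (0.022, −0.41). These genes were chosen for the likeness of their values.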

How the data were processed

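RNA-Seq of 3 parental and 3 resistant libraries was analysed from the deposited table of raw counts per gene. The authors mapped reads to hg38 with HISAT2 (2.0.5) and counted them with featureCounts (1.5.0-p3), and the submitters' processing notes also name fastp. The annotation release and strand setting are not given in the sources used here. Samples were grouped by their titles, and column names were matched to titles by group and number.

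Genes were filtered with filterByExpr, scaled with TMM and tested by the quasi-likelihood method of edgeR (4.0.16, under R 4.3.3), with Benjamini-Hochberg adjustment over all genes tested. The methods name limma, which was run as an alternative (limma-voom, limma 3.58.1), besides DESeq2 (1.42.0), library size alone, upper quartile scaling, a table without a filter, one with 10 or more counts in each library, fold changes with a prior count of 5, the replicate number as a block, and each library left out. The prior count of 5 changes fold changes only and leaves the edgeR FDR unchanged, so it does not test a call by FDR alone. SE is the log2 fold change divided by the square root of F. FPKM was computed from TMM-scaled CPM and the gene length in the table. Scripts were tested on simulated data. Replicate libraries differed by more than sampling noise (chi-square per degree of freedom 1.75 to 2.38 within groups), so no library was taken for a copy of another, which does not show that they were separate cultures.

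Members and lists were chosen with earlier results of these data known. SEPTIN4 and MARCHF5 were matched by their older symbols, SEPT4 and MARCH5. DIABLO has more than 1 row, of which the more abundant was used. Named genes are all members and relatives, the 3 genes of each other list with the largest change among those called, ATF4 and DDIT3, the nearest neighbors of members, and the 3 genes nearest in pattern to the member with the smallest p. Some genes of the lists that this rule takes are counted but not reported here by name. Counting limits such as 3 counts per library cover counting error only.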

Additional observations from a re-analysis of the deposited data

How the results depend on the processing

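Of the 140 log2 fold changes of the 10 members under the alternatives, 132 kept their direction and their side of an FDR of 0.05. The 140 include fold changes with a prior count of 5, which leaves the edgeR FDR of each member unchanged. For these values the side of 0.05 was fixed in advance, so they do not test the calls. The cause of the changes outside the 132 was not tested. BID was no longer called with DESeq2 (−0.40) and without a filter (−0.39), and it ranged from −0.44 to −0.31 with a library left out. BAK1 ranged from 0.21 to 0.32 and BCL2L1 from −0.097 to 0.0023 with a library left out. The number of members called higher was 1 or 2 and that of members called lower 3 or 4 over those fits. Both thresholds with at least 10 counts in every library called 248 genes higher and 287 lower, against 434 and 487.

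The number of BCL2 relatives called higher, 1, was 0 with DESeq2 and with library size alone and 2 with upper quartile scaling and with at least 10 counts in every library, and ranged from 0 to 1 with a library left out. Apoptosome and caspase genes called higher numbered 2 without a filter and 1 to 3 with a library left out. Death receptor genes called higher numbered 1 to 2 with a library left out. Turnover genes called higher numbered 0 with DESeq2, library size alone or no filter, and 0 to 1 with a library left out. Mitochondrial partners called lower numbered 2 with DESeq2 and 2 to 4 with a library left out, and those called higher 1 to 2. Genes of the 7 lists called lower past both thresholds numbered 1 with limma-voom, 0 with a prior count of 5 and 0 to 2 with a library left out.

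Weak or uncalled genes changed sign. BCL2L10 was at −0.00687 with DESeq2 and −0.013 with library size alone, and HRK at 0.025 with limma-voom. With a library left out BCL2L10 ranged from −0.42 to 0.41, HRK from −0.22 to 0.32, BCL2L12 from −0.13 to 0.0053 and BCL2L14 from −0.64 to 0.38.

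Groups share replicate numbers, but same-numbered libraries did not deviate together (correlation across genes −0.0081, −0.020 and −0.016), so the numbers are not taken as pairs. With the replicate block, BCL2 had a log2 fold change of −0.42, and 2 members were called higher and 4 lower, as without it.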
